A study of Mus musculus with 6 samples.

Results

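The 10 genes described here mark the zones of the liver lobule. The 7 pericentral markers were Glul, Oat, Slc1a2, Rhbg, Lgr5, Axin2 and Tbx3, and the 3 periportal markers were Hal, Sds and Sdsl. They were taken by name from a table of 56884 mouse genes, all 10 were found, and all 10 passed the filter on low counts (10 in total) that left 18018 genes to test. RNA of liver tissue was counted in 6 libraries, 3 labelled siControl and 3 labelled siAATF. Rhbg, Lgr5, Sds and Sdsl had 2, 2, 4 and 6 counts over the siControl libraries, so they passed the filter only through siAATF. All mice were male, wild-type athymic BALB/c (nu/nu) animals aged 6 weeks that carried human hepatocellular carcinoma (HCC) cells in the liver, and lacked a normal thymus and T cells. They received AAV8, a liver-directed viral vector, through the tail vein 1 week after implantation and were followed for 3 weeks more. The vector held either a control siRNA or an siRNA against mouse Aatf under the TBG promoter, which is active in hepatocytes, so both groups carried tumor cells and vector.

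Blood in the liver lobule flows from the portal triad to the central vein, and hepatocytes along that path divide the work of metabolism. Endothelial cells of the central vein release WNT ligands and R-spondin, and β-catenin signaling in the nearest hepatocytes holds their pericentral program. Periportal hepatocytes carry out urea synthesis, gluconeogenesis and the breakdown of several amino acids, while a thin pericentral layer turns the remaining ammonia into glutamine. Most of the markers below are made by hepatocytes. In bulk tissue, fewer cells of a type and less RNA per cell cannot be told apart.

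The groups differed in depth and in the share of human RNA. Mouse counts per library were 213022 to 913584 in siControl and 11835898 to 42563694 in siAATF, and human genes held 98.1% to 99.2% and 0.972% to 2.14% of all gene counts, respectively. A gene with no count could still reach 3 counts, which equals 3.28 to 14.1 CPM (counts scaled to 1e+06 mouse counts) for siControl libraries and 0.0705 to 0.253 CPM for the others. These floors and the counting intervals below cover counting error only, since PCR copies of a read are not independent molecules. Mitochondrial genes held 4.04% to 10.5% of the mouse counts in siControl, 20.8% and 25.7% in siAATF replicates 3 and 1, and 56.1% in siAATF replicate 2, which stood apart. Aatf, the target of the siRNA, was counted 12, 1 and 23 times in the siControl libraries and 384, 109 and 340 times in the siAATF libraries. Its log2 fold change was 0.93 ± 0.47 (SE, n = 3 and 3; edgeR adjusted p = 0.152) under TMM, −0.92 with library size alone (adjusted p = 0.174) and −1.98 relative to hepatocyte reference genes (adjusted p = 0.0212), a scaling explained below. On that last scale the median of all genes was −2.56 and 56.3% of genes were called lower, and the call of Aatf was lost without siControl replicate 3 (−1.11, adjusted p = 0.405), siAATF replicate 1 (−1.67, adjusted p = 0.151) or siAATF replicate 3 (−1.68, adjusted p = 0.0814). The direction of Aatf therefore turned with the scaling, and the libraries are named below by their labels. The labels give liver for all 6 libraries and do not say how much tumor each piece of tissue held, so the human share of the tissue and the group cannot be told apart in any difference below.

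Markers of both zones were higher together in the libraries labelled siAATF. TMM scaling aims to centre the bulk of mouse genes. After it, 9 of 10 markers rose at an adjusted p under 0.05 in edgeR's quasi-likelihood test and 0 fell. Among all tested genes 17.6% were called higher and 14.4% lower. The pericentral count was 6 of 7, with a median log2 fold change of 3.40. All 3 periportal markers rose, with a median of 3.98. The median over all tested genes was 0.50, so they were not fully centred. The same 9 markers had no overlap between the groups, which held for 34.5% of all genes in that direction. Rhbg, Lgr5, Sds and Sdsl are among them and passed the filter only through their siAATF counts. Axin2 was the marker that was not called. With library size alone in place of TMM, 747 of the 18018 genes were called higher and 7276 lower. Slc1a2, Tbx3, Hal, Sds and Sdsl were still called higher on that scale. Glul, Oat, Rhbg and Lgr5 had positive log2 fold changes there, with edgeR adjusted p of 0.123 to 0.194. The rise was shared with genes of hepatocytes in general, described below, and relative to the summed counts of 12 such genes Slc1a2 and Axin2 separated the groups.

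**Figure D1:**
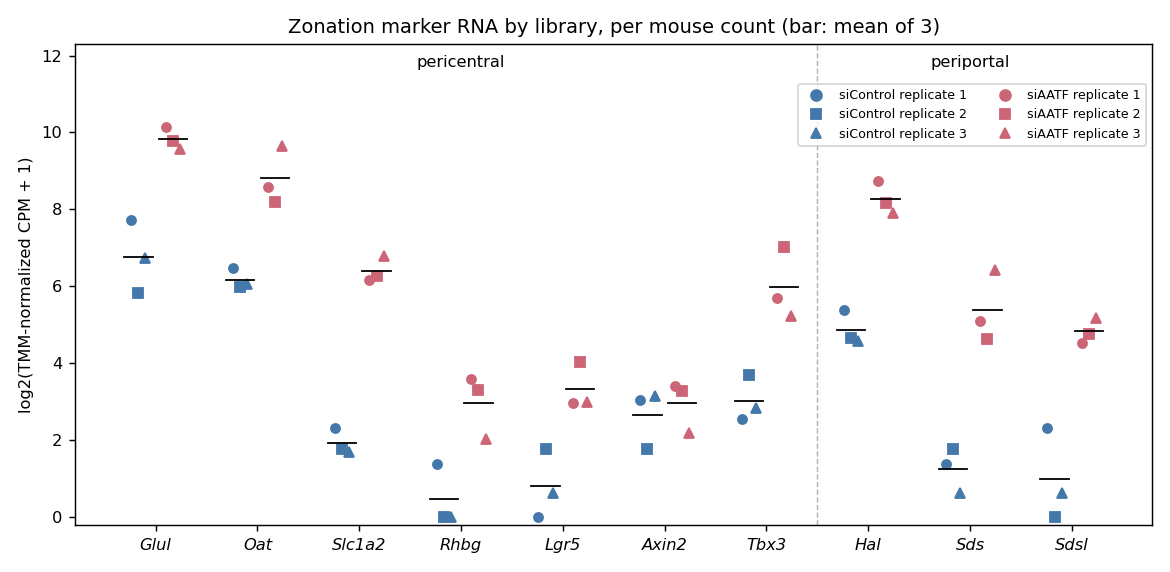
Levels of the 10 markers in each library, as log2 of TMM-normalized CPM plus 1. Blue symbols are siControl and red symbols siAATF, with a shape for each replicate and a bar at the mean of the 3 log2 values. The groups are separate for 9 markers and overlap for Axin2.

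Pericentral genes of glutamate and ammonia handling rose. Glul, or glutamine synthetase (ENSMUSG00000026473, GRCm39 chr1:153775690-153785469, plus strand), joins ammonia to glutamate and is the classic marker of the hepatocytes next to the central vein. It had 262, 23 and 188 counts in the siControl libraries against 32750, 4368 and 13645 in siAATF, or 210, 55.6 and 105 against 1130, 881 and 757 TMM-normalized CPM. The lowest siAATF library was above the highest siControl library, and the means were 124 ± 79.1 and 923 ± 190 CPM (SD, n = 3 each). The log2 fold change was 2.89 ± 0.59 (SE, edgeR adjusted p = 0.00247). Oat (ENSMUSG00000030934, chr7:132159207-132178127, minus strand), the mitochondrial ornithine aminotransferase, feeds glutamate to that reaction. Its levels were 87.5, 62.8 and 65.8 CPM in siControl and 383, 291 and 807 CPM in siAATF. The siControl libraries lay close together and all siAATF libraries were higher, with a log2 fold change of 2.77 ± 0.52 (SE, edgeR adjusted p = 0.00156). Oat lies within the span of Fgfr2 on the same strand, which had 12 to 86 counts per siControl library and 93 to 803 in siAATF.

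Slc1a2 (ENSMUSG00000005089, chr2:102489004-102621129, plus strand) encodes the glutamate transporter GLT-1, which brings glutamate into pericentral hepatocytes. It was counted 5, 1 and 4 times in siControl libraries against 2059, 375 and 1991 in siAATF. These are 4.0, 2.4 and 2.2 CPM against 71.1, 75.6 and 110 CPM. The groups did not overlap, with a log2 fold change of 4.87 ± 0.49 (SE, edgeR adjusted p = 4.05e-05), and the 3 siAATF libraries were within a factor of 1.55 of each other. Rhbg (ENSMUSG00000104445, chr3:88150181-88162016, minus strand), an ammonium transporter of the Rhesus family, had 2, 0 and 0 counts in the siControl libraries against 319, 44 and 56 in siAATF. With so few siControl counts its size is best read from summed counts over summed TMM-scaled library sizes, which gave a ratio of 13.9 with a 95% exact binomial interval of 3.83 to 115. The edgeR log2 fold change was 3.66 ± 1.04 (SE, adjusted p = 0.0173). That call was lost without siControl replicate 2 (adjusted p = 0.0504) and without siControl replicate 3 (adjusted p = 0.112). Without siControl replicate 1, which held both siControl counts, no siControl count was left and the fitted value went to 9.37 (adjusted p = 0.0145), which is no bound.

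Of the 3 markers closest to WNT signaling, Lgr5 and Tbx3 rose and Axin2 did not. Lgr5 (ENSMUSG00000020140, chr10:115286216-115423685, minus strand), an R-spondin receptor and WNT target, was counted 0, 1 and 1 times in siControl libraries against 198, 77 and 126 in siAATF. The ratio of summed counts was 13.3 with a 95% exact interval of 3.66 to 110, and the edgeR log2 fold change was 3.97 ± 0.92 (SE, adjusted p = 0.00562). Without siControl replicate 3 the adjusted p was 0.0515. Tbx3 (ENSMUSG00000018604, chr5:119808734-119822789, plus strand), a T-box factor of pericentral and β-catenin-active hepatocytes, stood at 4.8, 12.1 and 6.1 CPM in siControl and 50.8, 129 and 36.3 CPM in siAATF. Replicate 2 was the highest library of both groups, although the labels do not say that same-numbered samples are paired, and the groups did not overlap. Its log2 fold change was 3.40 ± 0.59 (SE, edgeR adjusted p = 0.000945). The antisense gene Tbx3os1 overlaps Tbx3 and had 2, 0 and 0 counts in the siControl libraries against 171, 98 and 73 in siAATF. The sources used here do not give whether counting was strand-specific.

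Axin2 (ENSMUSG00000000142, chr11:108811175-108841609, plus strand) is a scaffold of the β-catenin destruction complex and a feedback target of WNT signaling in many cell types. It was counted 9, 1 and 14 times in siControl libraries against 279, 43 and 64 in siAATF, or 7.2, 2.4 and 7.8 against 9.6, 8.7 and 3.6 CPM. The groups overlapped, since siAATF replicate 3 was below 2 of the siControl libraries. The means were 5.82 ± 2.96 and 7.28 ± 3.27 CPM (SD, n = 3 each), and the log2 fold change was 0.17 ± 0.57 (SE, edgeR adjusted p = 0.853). That is −0.34 relative to the median of all genes, and its sign turned with limma-voom, upper-quartile scaling and library size alone. The ratio of summed counts was 1.07, with a 95% exact interval of 0.707 to 1.69.

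TCF/LEF factors, which carry the β-catenin signal at DNA, bind a core of the letters CTTTGA or CTTTGT. On either strand of the 250 bases before the annotated start of each canonical transcript, 2 of 10 markers (20%) held one of them, against 24.1% of 13864 protein-coding genes. The windows are shown because 1 belongs to the marker that was not called and 1 to a periportal marker, with the core in capitals, on the plus strand of GRCm39, at chr11:108811604-108811633 for Axin2 and chr10:93324419-93324448 for Hal.
Axin2: ctcggctcgcgcCTTTGAagtgcacagtta
Hal: cagaactgctttCTTTGAtggagcaatggc
The core of Axin2 lay 22 bases before the start of the canonical transcript and that of Hal 198 bases before it. Other Axin2 transcripts start farther upstream, so its window lies inside the gene span given above and overlaps an annotated exon, while the Hal window overlaps none. A match of letters is a description and not a binding site, and regions farther away were not searched.

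The periportal markers, all enzymes of amino acid breakdown, rose as well. Hal (ENSMUSG00000020017, chr10:93324630-93355166, plus strand), histidine ammonia-lyase, takes the first step of histidine breakdown. It had 51, 10 and 41 counts in the siControl libraries against 12459, 1413 and 4303 in siAATF, or 40.9, 24.2 and 22.9 against 430, 285 and 239 CPM. The means were 29.3 ± 10.1 and 318 ± 99.8 CPM (SD, n = 3 each), with no overlap and a log2 fold change of 3.42 ± 0.48 (SE, edgeR adjusted p = 0.000246). Sds (ENSMUSG00000029597, chr5:120614591-120621997, plus strand), serine dehydratase, turns serine into pyruvate for gluconeogenesis. It was counted 2, 1 and 1 times in siControl libraries against 968, 118 and 1521 in siAATF. The ratio of summed counts was 43.3 with a 95% exact interval of 16.9 to 159, and the edgeR log2 fold change was 5.29 ± 0.74 (SE, adjusted p = 0.000235). Sdsl (ENSMUSG00000029596, chr5:120596251-120610875, minus strand), a serine dehydratase-like enzyme, is its neighbour, with 3715 bases between them. Sdsl had 5, 0 and 1 counts in the siControl libraries against 645, 130 and 639 in siAATF. At 22.3, 26.2 and 35.4 CPM its siAATF libraries were more even than those of Sds, at 33.4, 23.8 and 84.4 CPM. The ratio of summed counts for Sdsl was 15.7 with a 95% exact interval of 7.18 to 42.7, and the log2 fold change was 3.98 ± 0.65 (SE, edgeR adjusted p = 0.000629). Without siControl replicate 1, which held 5 of the 6 siControl counts, the log2 fold change was 5.93. Sds overlaps Plbd2 on the opposite strand, which had 5 to 60 counts per siControl library and 455 to 2556 in siAATF.

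Levels of different genes were compared per kilobase of the gene length in the deposited table. In siAATF, Glul was at 275 ± 56.7 and Oat at 229 ± 128 CPM per kilobase (SD, n = 3), and their ranges overlapped. Below them and without overlap came Hal at 59.8 ± 18.8, Sds at 36.6 ± 25.3, Sdsl at 18.7 ± 4.52, Tbx3 at 13.8 ± 9.59 and Slc1a2 at 7.09 ± 1.78. Each of these overlapped the next, but Hal lay above Sdsl, Tbx3 and Slc1a2 without overlap, and Sds and Sdsl lay above Slc1a2. Rhbg at 3.96 ± 2.11, Lgr5 at 2.08 ± 1.06 and Axin2 at 1.71 ± 0.767 CPM per kilobase were the lowest. In siControl, Glul at 36.9 ± 23.6, Oat at 33.5 ± 6.26 and Hal at 5.51 ± 1.90 CPM per kilobase led as well, and the other 7 markers were at 0.210 to 1.47.

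Hepatocyte genes were mostly called higher in siAATF as well. The 12 reference genes of hepatocytes, secreted plasma proteins plus the factor Hnf4a, summed to 15745 to 34470 CPM without TMM in siControl and to 23422 to 90788 in siAATF. These ranges overlap, since siAATF replicate 2 was below siControl replicate 1. After TMM scaling 11 of the 12 were called higher, beside 17.6% of all genes. The exception was Trf, the iron carrier transferrin, at a log2 fold change of 1.87 (edgeR adjusted p = 0.159). Trf held 47.9% to 56.9% of the reference counts in siControl and 12.8% to 25.6% in siAATF, so the make-up of this reference differed between the groups too. Each marker was therefore also set against the reference counts of its own library, which asks whether it departed from hepatocyte RNA.

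Relative to the hepatocyte reference, 8 of 10 markers overlapped between the groups. Glul had 10.8, 6.86 and 11.4 counts per 1000 reference counts in siControl and 9.55, 15.8 and 4.30 in siAATF. The means were 9.69 ± 2.47 and 9.87 ± 5.74 (SD, n = 3 each), with 1 siAATF library above and 1 below all siControl libraries (two-sided exact permutation p = 0.8). Hal, at 2.10, 2.98 and 2.49 against 3.63, 5.10 and 1.36, showed the same wide siAATF range (exact permutation p = 0.8). Tbx3, at 0.247, 1.49 and 0.667 against 0.429, 2.31 and 0.206, spread widely in both groups (exact permutation p = 0.9). Oat was at 4.50, 7.75 and 7.15 against 3.24, 5.20 and 4.58 (exact permutation p = 0.3). Its 3 siAATF libraries fell below all siControl libraries once Trf was left out of the reference or its genes were averaged on a log scale. Sds was at 0.0825, 0.298 and 0.0606 against 0.282, 0.426 and 0.479, overlapping through siControl replicate 2, where the value is 1 count (exact permutation p = 0.2). Rhbg, Lgr5 and Sdsl had libraries with 0 counts and were not tested on this scale. With Alb left out of the reference, Sds and Sdsl were also higher in all siAATF libraries.

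Slc1a2 and Axin2 separated in opposite directions. Slc1a2 had 0.206, 0.298 and 0.243 counts per 1000 reference counts in siControl and 0.600, 1.35 and 0.627 in siAATF, a difference of 1.70 on the log2 scale (exact permutation p = 0.1). Axin2 had 0.371, 0.298 and 0.849 against 0.0813, 0.155 and 0.0202, a log2 difference of −2.84 (exact permutation p = 0.1). With 3 libraries against 3 the smallest p this test allows is 0.1, and 7 markers were tested. Both separations held in the reference without Alb, in that without Trf and in the geometric mean. Per count of all mouse genes but mitochondrial ones, a denominator that is not of hepatocytes alone, Axin2 overlapped at a log2 difference of −0.92. On that scale Glul, Oat, Slc1a2, Hal, Sds and Sdsl were higher without overlap, by 1.79 for Glul and 2.15 for Hal. The share of all genes without overlap was not worked out on that scale. Among all tested genes, 11.6% were higher without overlap per reference count and 50.8% were lower, so the place of Axin2 was that of many mouse genes.

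**Figure D2:**
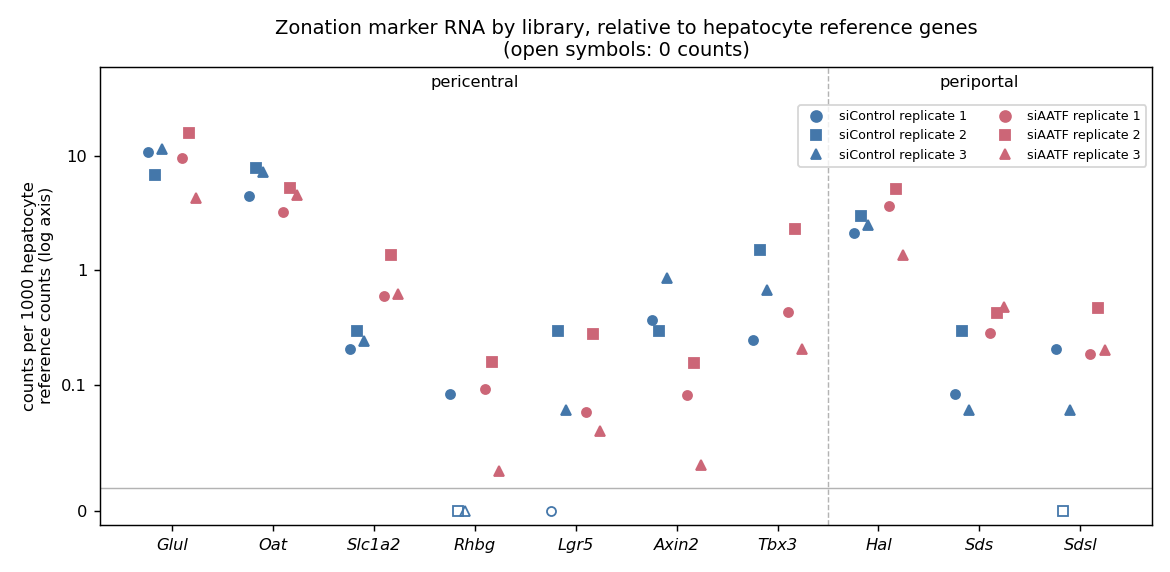
Counts of each marker per 1000 counts of the 12 hepatocyte reference genes, by library, on a log axis, with libraries of 0 counts as open symbols under the line. siControl is blue and siAATF red. Slc1a2 is higher and Axin2 lower in all siAATF libraries, and the other 8 markers overlap.

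The same 2 markers were called when edgeR used the reference counts as library size. Slc1a2 was higher by 1.88 ± 0.86 on the log2 scale (SE, adjusted p = 0.0499), where 1.39% of all genes were called higher. That call was lost on leaving out any library except siAATF replicate 3, with adjusted p of 0.0795 to 0.158 and log2 fold changes of 1.40 to 2.07. Without siAATF replicate 3 the adjusted p was 0.0391. It was also lost without Trf in the reference (1.05, edgeR adjusted p = 0.297) and with the geometric mean (1.36, edgeR adjusted p = 0.218). Axin2 had a log2 fold change of −2.69 ± 0.89 (SE, edgeR adjusted p = 0.00563), where 56.3% of genes were called lower and the median of all genes was −2.56. Axin2 was therefore −0.14 from that median, and its call was lost without siControl replicate 3 (log2 fold change −2.06, adjusted p = 0.145). Glul was at 0.02 ± 0.65 and Hal at 0.44 ± 0.68 on this scale (SE, edgeR adjusted p = 0.984 and 0.606).

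**Figure D3:**
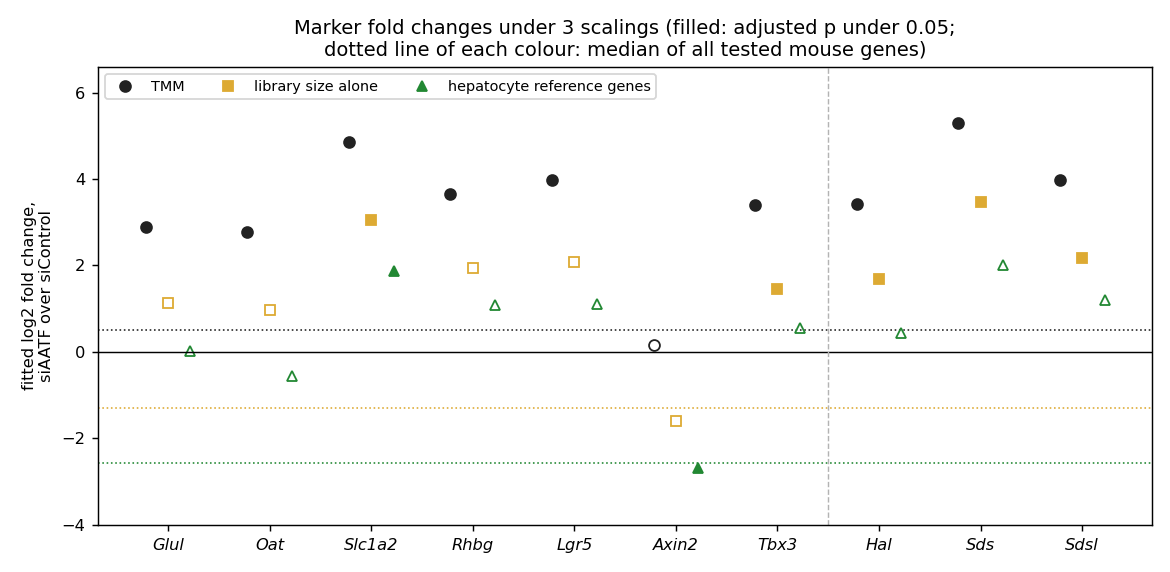
Fitted log2 fold change of each marker under TMM (black circles), library size alone (yellow squares) and hepatocyte reference genes (green triangles). Filled symbols have an adjusted p under 0.05, and dotted lines give the median of all tested genes under each scaling, 0.50, −1.30 and −2.56. Axin2 stays near each dotted line, and the other 9 markers lie above it under all 3 scalings.

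The siAATF libraries also differed among themselves. Per reference count, replicate 2 was the highest siAATF library for 9 of 10 markers, and Sds was highest in replicate 3. Replicate 2 is also the library with 56.1% mitochondrial counts and, of the siAATF libraries, the lowest share of reference counts, and their part in this order was not tested. Replicate 3 was the lowest for Glul, Rhbg, Lgr5, Axin2, Tbx3 and Hal, while replicate 1 was the lowest for Oat, Slc1a2, Sds and Sdsl. On the TMM scale the ratio of the highest to the lowest siAATF library ran from 1.49 for Glul to 3.55 for Tbx3. Replicate 3 was highest for Oat, Slc1a2, Sds and Sdsl, at 807, 110, 84.4 and 35.4 CPM, where replicate 1 had 383, 71.1, 33.4 and 22.3 CPM.

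The balance of the zones was read from Glul and Hal, the best counted marker of each. There were 5.14, 2.30 and 4.59 Glul counts per Hal count in siControl and 2.63, 3.09 and 3.17 in siAATF. The siAATF values fell inside the siControl range, and the siControl value of 2.30 rests on 23 and 10 counts. Over the 6 libraries Glul and Hal had a Pearson r of 0.97 in log2(TMM-normalized CPM + 1), while Axin2 had r = 0.49 with Glul and 0.36 with Hal. Among 9456 genes with a mean of at least 50 counts, Slc25a25, Gm15417 and Cluh were most like Glul, with r = 0.9998, 0.9991 and 0.9989. D130020L05Rik, Gm20319 and Cyp2c50 were most like Hal, with r = 0.9988, 0.9985 and 0.9982. The 6 points of each r share depth and group, so the values are given as a description.

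Most other listed genes of both zones rose under TMM as well. In a list of 14 further pericentral genes, 13 rose and 0 fell, beside 17.6% and 14.4% of all genes, with a median log2 fold change of 4.69, or 4.18 when Slc22a3, which had no count in siControl, was set at its bound of at least 3.17-fold higher. Cyp1a2, a xenobiotic oxidase, rose by 6.10, Aox3, an aldehyde oxidase, by 5.90, and Cyp7a1, the rate-limiting enzyme of bile acid synthesis, by 5.68. Cyp1a2 had 24, 0 and 3 siControl counts and Cyp7a1 had 11, 0 and 0. Leaving aside hepatocyte scaling, their alternatives ran from 4.45 to 8.68 and from 3.80 to 13.8. Ahr, the receptor that induces Cyp1a2, was at 0.81 (edgeR adjusted p = 0.152). In a list of 23 further periportal genes, 21 rose and 1 fell, with a median of 4.38. Cyp2f2, a classic periportal cytochrome, rose by 6.97 and Otc, the urea cycle enzyme ornithine transcarbamylase, by 6.48. Etnppl had no count in siControl and 2824, 201 and 132 in siAATF, at least 69.9-fold higher against a floor of 3 counts over the group. Ctsc, a lysosomal protease also made by leukocytes, was the one that fell, from 291 ± 55.5 to 25.5 ± 9.29 CPM (SD, n = 3 each). Cdh1, the epithelial cadherin, was at 0.07 (edgeR adjusted p = 0.936). With hepatocyte reference scaling 6 of 14 and 11 of 23 genes were called higher and 1 and 2 lower, where 1.39% of all genes were called higher and 56.3% lower.

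Genes of WNT signaling did not move one way. Of 23 listed genes 22 were tested, 5 rose and 3 fell, beside 17.6% and 14.4% of all tested genes, with a median log2 fold change of 0.90. These counts turned with the scaling, as did those of all genes. With library size alone 2 rose and 8 fell, beside 747 and 7276 of all 18018 genes. With hepatocyte reference scaling 0 rose and 12 fell, beside 1.39% and 56.3% of all genes. Notum, a secreted WNT deacylase that hepatocytes near the central vein make, rose by 4.96, Lgr4, an R-spondin receptor, by 4.27, and Rnf43, a ligase that removes WNT receptors, by 2.52. The call of Rnf43 was lost with library size alone (0.76, edgeR adjusted p = 0.453) and without siControl replicate 1 (adjusted p = 0.0537). Rspo3, the R-spondin of the central vein, was at 7.14 ± 2.20 CPM in siControl and 20.7 ± 9.73 in siAATF (SD, n = 3 each) and rose by 1.63 (edgeR adjusted p = 0.0285), but stood at −0.20 with library size alone and lost its call without siControl replicate 1 or 3 and without siAATF replicate 1 or 2 (adjusted p = 0.0514 to 0.140). Wnt2 was counted 1, 0 and 2 times in siControl libraries against 222, 10 and 22 in siAATF, and Wnt9b had 0, 0 and 2 against 106, 8 and 13. Neither of these 2 ligands of liver endothelium was called (log2 fold change 2.14 and 1.88, edgeR adjusted p = 0.151 and 0.267). Ctnnb1, β-catenin itself, fell by 1.29 and Nkd1, an inhibitor induced by WNT signaling, fell by 1.31 (edgeR adjusted p = 0.0449 and 0.0314). Both calls were lost under some alternatives, with adjusted p up to 0.142 and 0.116, and 1 gene of the list was called lower without any one siControl library or without siAATF replicate 3. The third that fell, Dkk3, was named after its values were seen, at −4.59.

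Among 15 genes of glutamine and ammonia handling 13 were tested, 7 rose and 2 fell, beside 17.6% and 14.4% of all genes, with a median of 1.17. The counts were 3 higher and 4 lower with library size alone, beside 747 and 7276 of all 18018 genes. They were 1 and 7 with hepatocyte reference scaling, beside 1.39% and 56.3% of all genes. Without siControl replicate 3 they were 4 and 2, beside 1611 and 1722 of 17749 genes. Gls2, the glutaminase of periportal hepatocytes, rose from 3.61 ± 1.75 to 160 ± 54.9 CPM (SD, n = 3 each), a log2 fold change of 5.40. The glutamine transporters Slc38a4 and Slc38a3 rose by 4.38 and 4.13. Slc1a5, a glutamine transporter of proliferating cells, fell and was named after its values were seen, at −3.29.

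**Figure D4:**
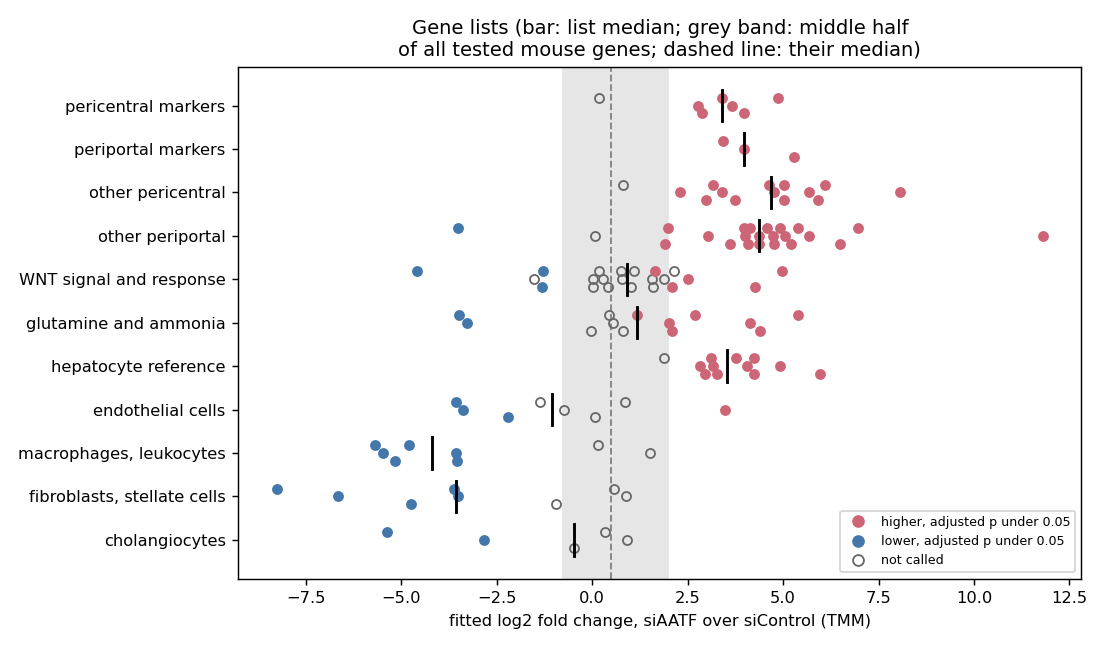
Fitted log2 fold change of each tested gene in 11 lists under TMM, with red for called higher, blue for called lower and open grey for not called. The black bar is the list median, and the grey band and dashed line are the middle 50% and the median (0.50) of all tested genes. Lists of hepatocyte genes of both zones lie to the right and those of macrophages and fibroblasts to the left.

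Several markers of other liver cells fell, where 14.4% of all genes were called lower. The list of macrophage and leukocyte genes summed to 1128 to 2009 TMM-normalized CPM in siControl and 97.6 to 197 in siAATF, and 6 of its 8 genes fell, among them Itgam, Lyz2 and Cd68. The other 2, Clec4f and Cd5l of resident Kupffer cells, were not called, with positive log2 fold changes (edgeR adjusted p = 0.0705 and 0.848). Fibroblast and stellate cell genes summed to 6219 to 9143 against 337 to 541 CPM, and 5 of 8 fell, with Col1a1 at −8.27, Col3a1 at −6.67 and Acta2 at −4.75. Lrat and Reln, genes of quiescent stellate cells, and Dcn were not called, at 0.89, 0.57 and −0.94. Of the endothelial list, the source of the central vein signals, Cdh5, Pecam1 and Lyve1 fell by 3.58, 3.40 and 2.21, and Clec4g, of sinusoidal endothelium, rose by 3.48, while 4 of 8 were not called. Its sums were 312 to 418 against 96.0 to 218 CPM. Cholangiocyte genes summed to 1142 to 2312 against 74.9 to 77.9 CPM, 2 of 5 tested genes fell and 3 were not called, and Spp1, also made by macrophages, changed by −5.39. Spp1 held nearly all of that sum in siControl, and the list without it summed to 40.1, 16.9 and 27.9 CPM in siControl and to 31.7, 41.3 and 41.4 CPM in siAATF, which overlap. The hepatocyte reference summed to 8102 to 19465 against 55917 to 176096 CPM, and no library of either group had any of the defining markers Alb, Apoa1 and Ttr at 0. The part of these shifts in the marker values was not tested.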

How the data were processed

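Per the labels and the methods, RNA of liver tissue was made into SMART-Seq libraries, a method with PCR amplification of full-length cDNA. After trimming, the authors aligned to a joined human and mouse reference with STAR 2.7.11, kept reads with a single position in a single species, and assigned them to genes by featureCounts 2.0.1 (mouse build GRCm39). The values deposited are raw counts, with neither filter nor normalization.

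Of 56884 mouse identifiers, 56323 were named from gencode release 39, while the table was counted on an earlier release. Coordinates and gene lengths are those of the deposited table. Human counts served for the share of human RNA alone, and 3 broken lines of 1 human gene were left out. Counts were tested with edgeR 4.0.16 (limma 3.58.1, R 4.3.3): quasi-likelihood test, TMM, a minimum total of 10 counts, group as the only term, and Benjamini-Hochberg adjustment over all 18018 genes tested. The script was checked on simulated counts. Replicates are the labelled libraries. The labels do not say that each came from its own mouse, so p-values measure only the spread between these samples. Ratios to hepatocyte genes used a two-sided exact permutation test of log2 values. Alternatives were DESeq2 1.42.0, limma-voom, RLE, upper-quartile, library size alone, hepatocyte reference scaling, other filters, thinning to 213022 counts, a replicate block and leaving out each library.

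Genes named beside the markers are up to 3 called higher and 3 called lower per list by size of change, with separate groups and a mean count of 50 or more, plus Wnt2, Wnt9b, Rspo3 and Aatf, and the 3 genes most like Glul and like Hal. Others, such as Ahr, Cdh1, Slc22a3 and Trf, were chosen after their values were seen. Of the genes this rule selects, 1 is not reported here. The markers and lists were chosen with earlier results of these data known. Sequences are from the GRCm39 primary assembly, with starts from gencode release 39. Plots used Python 3.11.15 and matplotlib 3.10.9.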

Additional observations from a re-analysis of the deposited data

How the results depend on the processing

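The markers called higher (9 under TMM) numbered 7 to 9 on leaving out each library in turn. They were 5 with library size alone, beside 747 of all 18018 genes. Where each library had to reach 10 counts they were 3 of 3 tested, beside 872 of 3552 genes. With hepatocyte reference scaling 1 was higher and 1 lower, and with 3 variants of it, chosen after seeing the data, 1 and 1 (without Alb), 0 and 1 (without Trf) and 0 and 1 (geometric mean). The other pericentral genes called higher (13 under TMM) numbered 6, 6, 3 and 5 under these 4 scalings, with 1, 1, 2 and 1 lower, and 2 of 2 tested under the filter of 10 counts per library. The other periportal genes called higher (21) numbered 11, 11, 4 and 4, with 2, 2, 4 and 4 lower, and 6 of 7 tested under that filter, while library size alone called 2 lower instead of 1. Axin2 stood at −0.022 with limma-voom, −0.084 with upper-quartile scaling, −1.59 with library size alone and −2.69, −2.43, −3.59 and −3.26 under the 4 hepatocyte scalings, and between −0.059 and 0.57 on leaving out each library. Oat stood at −0.56, −0.34, −1.40 and −1.17 under those 4 scalings. Without Trf and with the geometric mean, Glul was at −0.84 and −0.53, Tbx3 at −0.36 and −0.11, and Hal at −0.43 and −0.14. The cause of these shifts was not tested. The median log2 fold change of all genes was 0.50 under TMM, −1.30 with library size alone and −2.56 with hepatocyte reference scaling, and 55.0%, 9.31% and 2.41% of calls were higher.

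No pairing by replicate number was seen. Deviations of same-numbered libraries correlated at 0.11, 0.15 and −0.02, and those of other pairs at −0.21 to 0.15. With 3 libraries per group these values cannot exclude a pairing. With the replicate block 3854 genes were called higher and 2912 lower, against 3169 and 2593 without it, and Axin2 was at −0.0097. Thinned to the smallest library, Rhbg, Lgr5 and Axin2 fell under the filter and the other 7 markers were called. Depth limits the siControl values of Rhbg, Lgr5, Sds and Sdsl, which rest on 2, 2, 4 and 6 counts in all.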
